A study of Homo sapiens with 6 samples.

Results

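The BCL2 family genes described here are the 10 rows of the deposited count table whose symbol is *BCL2L1*, *BCL2L2*, *MCL1*, *BAX*, *BAK1*, *BID*, *BAD*, *BBC3*, *PMAIP1* or *BCL2L11*, out of 20381 genes. They were chosen by name and role and not by a cut on their values, although earlier results of these data were known. RNA-seq of poly(A) RNA was carried out on HCCLM3, a human hepatocellular carcinoma (HCC) cell line with little *PON1* RNA of its own. PON1-OE cells stably carried the human *PON1* coding sequence, which encodes a secreted esterase and lactonase of the liver, on a lentiviral vector, and NC cells carried the empty vector lentivirus, each selected with puromycin, with 3 libraries per group. The design text of the series counts the time of lysis from a transfection, while the sample labels and the study's methods describe stable lines, and neither says whether the replicates of a group were separate cultures, so the p-values measure the spread between these libraries. The study reported fewer apoptotic cells after *PON1* knockdown in another HCC line, which is not part of this series. It also stained both HCCLM3 lines with Annexin V to measure apoptosis, and reported a higher apoptosis rate in PON1-OE. The comparison here asks whether the RNA of the family's members differed between the same lines.

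The BCL2 family sets the threshold for apoptosis at the outer membrane of the mitochondrion. The effectors BAX and BAK1 form pores through which cytochrome c leaves, the anti-apoptotic members (here BCL2L1, BCL2L2 and MCL1) hold the effectors and their activators in check, and the BH3-only members (BID, BAD, BBC3, PMAIP1 and BCL2L11), which carry only the third of the family's homology regions, relay damage and stress signals to both. In liver, hepatocytes are known to need MCL1 and BCL2L1 to survive. Much of the family's control lies in cleavage, phosphorylation, degradation and binding of the proteins, which RNA counts do not measure, and counts per gene do not separate splice forms such as the long and short products of *BCL2L1*.

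The libraries held 15706672 to 17948383 estimated counts, and *PON1* had 155, 181 and 167 counts in the PON1-OE libraries where the NC libraries held 0, 2 and 3. The labels call the cells hepatocytes. The hepatocyte regulator *HNF4A* had 1223 to 1492 counts per library, whereas the defining secreted products *ALB*, *APOA1*, *SERPINA1* and *TTR* reached at most 13 counts in a library and *AFP* at most 18. The epithelial keratins *KRT8* and *KRT18* had at least 24078 counts. Of 7 markers of leukocytes, endothelium and fibroblasts, *PTPRC* was at 0 in every library, *COL1A1*, *COL3A1* and *ACTA2* did not exceed 4 counts and *VWF* had 5 to 12. The 2 others were detected, *CD68* with 3514 to 4097 counts (log2FC 0.13, unadjusted p = 0.00943 in edgeR, groups overlapping) and *PECAM1* with 216 to 249 counts (log2FC 0.21, unadjusted p = 0.0512, PON1-OE above NC), and their part in the results was not tested. In bulk RNA, fewer cells that express a gene and less of its RNA per cell cannot be told apart. Of 11958 genes tested, 0.677% passed an adjusted p of 0.05 (edgeR quasi-likelihood, Benjamini-Hochberg), 0.502% higher and 0.176% lower in PON1-OE, and 0.0502% also passed the fold threshold of the study, |log2FC| over 0.585.

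For *BCL2L2*, reads can be shared with the readthrough gene *BCL2L2-PABPN1*, and the splice junction of this gene is shown because it separates them. This gene begins in *BCL2L2* and ends in its downstream neighbor *PABPN1*, a nuclear poly(A)-binding protein gene, on the plus strand of chromosome 14. In GENCODE v29 (GRCh38) it has 1548 exonic bases, of which 813 are also exonic in *BCL2L2*, 653 in *PABPN1* and 82 in neither. Its junction transcript of 1241 bases has 0 bases of its own, so that only reads across the join of the exon 23307760 to 23308199 with the exon 23322181 to 23322295, 13981 bases apart, belong to it alone. The sequences on both sides of this junction, with 30 coding bases each and read from the GENCODE v29 transcripts, show what such a read must contain. Capitals mark the last bases of the shared *BCL2L2* exon, which continues into the *PABPN1* exon in the readthrough transcript and into the last *BCL2L2* exon (23308816 to 23311759) in *BCL2L2*; in *PABPN1* the same downstream bases follow its own first exon (23321289 to 23321820).
BCL2L2-PABPN1: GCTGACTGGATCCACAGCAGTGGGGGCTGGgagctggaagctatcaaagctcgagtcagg
BCL2L2: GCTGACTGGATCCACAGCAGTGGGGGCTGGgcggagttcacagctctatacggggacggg
PABPN1: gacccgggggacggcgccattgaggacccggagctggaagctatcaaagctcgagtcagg

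Of the 10 members, all 10 passed the filter on low counts, and 0 reached an adjusted p under 0.05 by edgeR. At an unadjusted p under 0.05 there were 2, *BAK1* higher and *BCL2L11* lower, where 11.1% of all genes tested passed (5.91% higher and 5.17% lower). DESeq2, limma-voom and the other alternatives also called 0 members after adjustment, although DESeq2 gave an adjusted p for 8 members, without *BCL2L11* and *PMAIP1*. The precision was high enough to bound the changes: the 95% intervals of the 10 members lay between 0.762-fold and 1.23-fold, so that a change by the fold threshold of the study was outside the interval of each. These intervals hold for single genes and describe the spread between these libraries. The median log2FC of the members was 0.027, against −0.0025 over all genes tested. Of the members 7 were above 0 and 3 below, where 5863 of all genes tested were higher and 6095 lower.

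**Figure D1:**
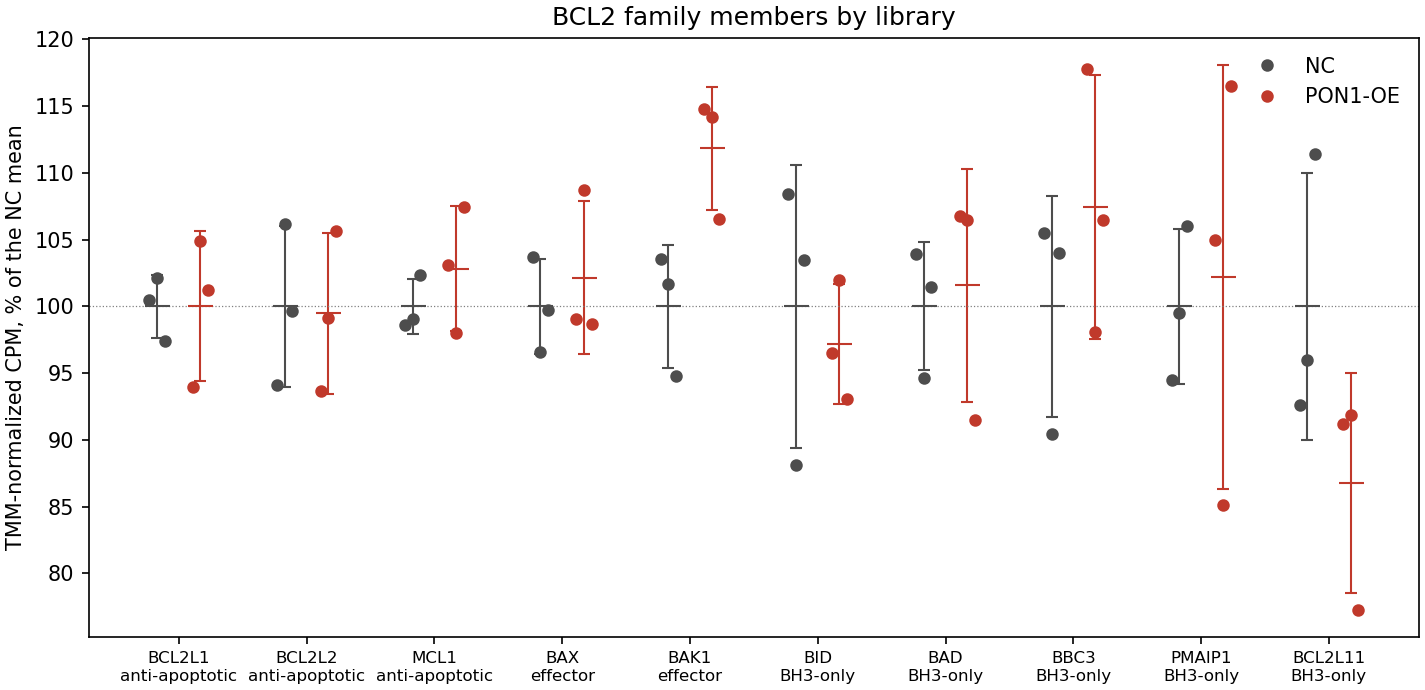
TMM-normalized CPM of each BCL2 family member in each library, as a percentage of the NC mean of that gene; points are libraries, bars the mean ± SD of 3 libraries per group. PON1-OE lies wholly above NC for BAK1 and wholly below it for BCL2L11, and the groups overlap for the other 8 members.

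Of the anti-apoptotic members, *MCL1*, *BCL2L1* and *BCL2L2*, 0 of 3 had an unadjusted p under 0.05. *MCL1* (chromosome 1, 150574551 to 150579738, minus strand) encodes a short-lived protein that binds BAK1 and several BH3-only members. Its level in TMM-scaled CPM (counts scaled to a common library size, the unit of level used from here on) was 874, 878 and 907 for NC and 913, 869 and 952 for PON1-OE, in the order of the replicate numbers, which is kept below. The groups overlapped, with the lowest and the highest library both in PON1-OE, and the log2FC was 0.040 (standard error 0.036, 95% interval −0.034 to 0.11, unadjusted p = 0.273 and adjusted p = 0.744 in edgeR). It ranged from 0.0079 without PON1-OE replicate 3 to 0.075 without PON1-OE replicate 2, with an unadjusted p of 0.0278 and adjusted p = 0.314 in edgeR.

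*BCL2L1* (chromosome 20, 31664452 to 31723989, minus strand) encodes BCL-XL. It measured 333, 338 and 323 CPM in the NC libraries and 311, 348 and 336 CPM in the PON1-OE libraries. The means were 331 ± 7.83 and 332 ± 18.5 CPM (SD, n = 3 each), with a log2FC of 0.00024 (standard error 0.041, 95% interval −0.085 to 0.085, adjusted p = 0.999 in edgeR). Both the lowest and the highest library were from PON1-OE. In GENCODE v29 the antisense gene *ABALON*, which is not in the count table, overlaps 1424 exonic bases of *BCL2L1*. The library kit named in the labels does not mark strand, so reads of overlapping genes on opposite strands cannot be told apart.

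*BCL2L2* (chromosome 14, 23298790 to 23311759, plus strand) encodes BCL-W. As deposited it measured 33.7, 38.0 and 35.7 CPM in the NC libraries and 33.5, 35.5 and 37.8 CPM in the PON1-OE libraries. The ranges of the groups nearly coincided, and the log2FC was −0.0092 (standard error 0.072, 95% interval −0.16 to 0.14, adjusted p = 0.977 in edgeR). Its counts were not whole numbers in 6 of 6 libraries. The same held for *BAD* in 4 libraries, while the counts of the other 8 members were whole, so fractional assignment of reads was seen in these 2 members.

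The share of the readthrough gene was lower in each PON1-OE library than in any NC library. *BCL2L2-PABPN1* had rounded counts of 180, 167 and 99 for NC against 87, 74 and 60 for PON1-OE. As a share of its sum with *BCL2L2* the NC libraries had 24.5%, 19.6% and 14.003%, and those of PON1-OE 13.7%, 11.5% and 9.20% (19.3 ± 5.23% against 11.5 ± 2.23%, SD, n = 3 each). The ranges did not overlap, and the exact two-sided permutation p was 0.1, which is the minimum for 3 libraries against 3. In CPM the readthrough gene also lay wholly lower in PON1-OE, as did 7.74% of all genes tested. In both groups the share fell from replicate 1 to replicate 3, and whether it followed the replicate numbers was not tested. The gap was narrow at its edge: the 95% Wilson intervals of NC replicate 3 (11.6% to 16.8%) and PON1-OE replicate 1 (11.2% to 16.5%) overlapped. Those intervals cover counting error only. The log2FC of the readthrough gene was −0.91 (standard error 0.19, adjusted p = 0.0293 in edgeR). The adjusted p was 0.211 without NC replicate 1, 0.0653 without NC replicate 2, 0.0692 without PON1-OE replicate 2, 0.175 without PON1-OE replicate 3 and 0.0741 in limma-voom. It was 9.31e-05 to 0.0431 under the other alternatives that gave one, and in DESeq2 the gene had none.

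Summing *BCL2L2* with its readthrough gene moved the log2FC from −0.0092 to −0.15, which did not pass the adjusted threshold. *BCL2L2* and the readthrough gene together had 736, 854 and 707 counts for NC against 637, 641 and 652 for PON1-OE. Scaled to CPM, the means were 44.4 ± 2.88 and 40.2 ± 1.42 (SD, n = 3 each), with a log2FC of −0.15 (standard error 0.067, 95% interval −0.28 to −0.0072, unadjusted p = 0.0402 and adjusted p = 0.425 in edgeR). With *PABPN1* added as well, the locus means were 140 ± 4.44 and 130 ± 3.39 CPM (SD, n = 3 each), with a log2FC of −0.11 (standard error 0.044, unadjusted p = 0.0203, adjusted p = 0.344). *PABPN1* alone had a log2FC of −0.093 (standard error 0.051, adjusted p = 0.528). How far the division of reads accounts for the lower readthrough count was not tested. The opposite-strand neighbor *PPP1R3E* shares 206 exonic bases with *BCL2L2*, and with its counts added to *BCL2L2* the log2FC was −0.034 (standard error 0.071).

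**Figure D2:**
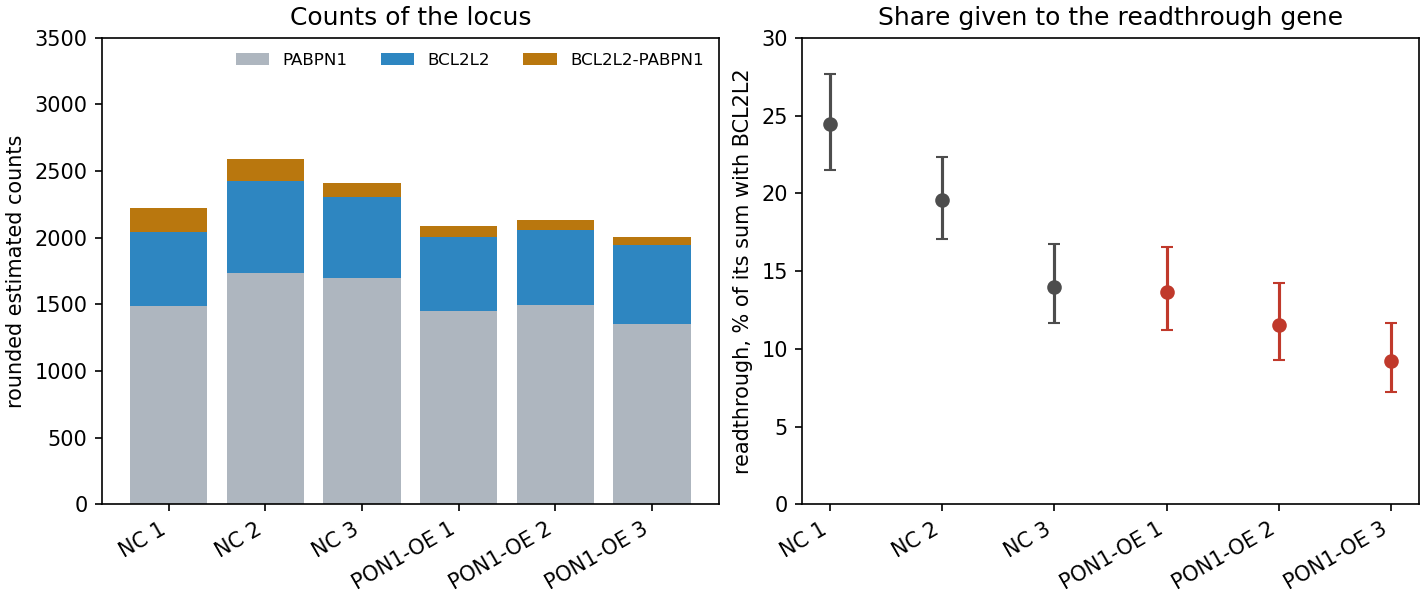
Left, rounded estimated counts of PABPN1, BCL2L2 and BCL2L2-PABPN1 stacked for each of the 6 libraries; right, BCL2L2-PABPN1 as a percentage of its sum with BCL2L2, with 95% Wilson intervals. The share runs from 24.5% to 14.003% in NC and from 13.7% to 9.20% in PON1-OE, and the intervals of NC replicate 3 and PON1-OE replicate 1 overlap.

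Of the 2 effectors, *BAK1* had an unadjusted p under 0.05 and *BAX* did not. *BAK1* (chromosome 6, 33572547 to 33580293, minus strand), which resides in the mitochondrial membrane, measured 40.1, 39.4 and 36.7 CPM in the NC libraries and 44.4, 44.2 and 41.2 CPM in the PON1-OE libraries. All PON1-OE libraries were above all NC libraries (exact permutation p = 0.1), with PON1-OE replicate 3 only slightly above NC replicate 1. The groups failed to overlap in this direction in 8.32% of all genes tested. The means were 38.7 ± 1.78 and 43.3 ± 1.79 CPM (SD, n = 3 each), a 1.12-fold difference with a 95% interval of 1.02-fold to 1.23-fold (log2FC 0.16, standard error 0.066, unadjusted p = 0.0226 and adjusted p = 0.358 in edgeR). The unadjusted p was 0.108 without NC replicate 3, 0.0678 without PON1-OE replicate 1 and just above 0.05 without PON1-OE replicate 2, and the adjusted p lay between 0.338 and 0.709 over all alternatives.

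*BAX* (chromosome 19, 48954815 to 48961798, plus strand), the effector that moves from the cytosol to mitochondria, measured 143, 134 and 138 CPM in the NC libraries and 137, 150 and 136 CPM in the PON1-OE libraries. A single library, PON1-OE replicate 2, was above the NC range and the others lay within it. The log2FC was 0.031 (standard error 0.047, 95% interval −0.067 to 0.13, adjusted p = 0.867 in edgeR). The ratio of *BAX* to *BCL2L1*, often used to describe the balance of the family, does not depend on library scaling and is given without a test. There were 43.1, 39.5 and 42.7 *BAX* counts per 100 *BCL2L1* counts for NC, against 44.0, 43.3 and 40.7 for PON1-OE (41.8 ± 1.98 against 42.7 ± 1.76, SD, n = 3 each). The groups overlapped, and their means differed by 0.031 on the log2 scale where the SD within a group was 0.069 in NC and 0.060 in PON1-OE.

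Of the 5 BH3-only members, *BCL2L11* had an unadjusted p under 0.05 and the other 4 did not. *BCL2L11* (chromosome 2, 111119378 to 111168447, plus strand) encodes BIM, which binds every anti-apoptotic member and can activate BAX and BAK1. It measured 23.3, 24.1 and 28.0 CPM in the NC libraries and 22.9, 23.1 and 19.4 CPM in the PON1-OE libraries. The PON1-OE values were wholly under those of NC (exact permutation p = 0.1), as were those of 7.74% of all genes tested, but 4 of the 6 libraries lay close together. The means were 25.1 ± 2.51 and 21.8 ± 2.07 CPM (SD, n = 3 each), a 0.868-fold difference with a 95% interval of 0.762-fold to 0.990-fold (log2FC −0.20, standard error 0.091, unadjusted p = 0.0360 and adjusted p = 0.406 in edgeR). The outer libraries carried the difference. Without NC replicate 3 the log2FC was −0.12 (unadjusted p = 0.235) and without PON1-OE replicate 3 it was −0.13 (unadjusted p = 0.199), and the unadjusted p was 0.0772 in DESeq2. The opposite-strand gene *MIR4435-2HG*, not in the count table, overlaps 727 exonic bases of *BCL2L11*.

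*BBC3* (chromosome 19, 47220822 to 47232766, minus strand) encodes PUMA, a target of p53. It measured 30.8, 26.4 and 30.4 CPM in the NC libraries and 34.4, 28.6 and 31.1 CPM in the PON1-OE libraries. Its log2FC was 0.11 (standard error 0.082, adjusted p = 0.695 in edgeR), and the groups overlapped because PON1-OE replicate 2 lay inside the NC range. The log2FC was 0.037 when either NC replicate 2 or PON1-OE replicate 1 was left out, and 0.17 without PON1-OE replicate 2.

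*PMAIP1* (chromosome 18, 59899948 to 59904306, plus strand) encodes NOXA, the BH3-only partner of MCL1 and also a p53 target. It measured 22.4, 23.6 and 25.2 CPM in the NC libraries and 24.9, 20.2 and 27.6 CPM in the PON1-OE libraries. Both the lowest and the highest library were PON1-OE libraries, and the 95% interval of the log2FC, −0.17 to 0.23 around 0.031 (standard error 0.096), was the widest of the 10 members.

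*BID* (chromosome 22, 17734138 to 17774770, minus strand) links death receptors to mitochondria after cleavage by caspase 8. It measured 93.7, 76.2 and 89.5 CPM in the NC libraries and 83.5, 88.2 and 80.4 CPM in the PON1-OE libraries, so that all PON1-OE libraries lay inside the NC range. Its log2FC was −0.040 (standard error 0.064, adjusted p = 0.878 in edgeR).

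*BAD* (chromosome 11, 64269830 to 64284704, minus strand), whose protein binds BCL-XL unless survival signals phosphorylate it, measured 52.9, 48.2 and 51.7 CPM in the NC libraries and 54.4, 54.2 and 46.6 CPM in the PON1-OE libraries. The groups overlapped, and the log2FC was 0.024 (standard error 0.067, adjusted p = 0.934 in edgeR). *BAD* shares 404 exonic bases, 23.7% of its exonic length, with *GPR137* on the opposite strand. Counted together, the 2 genes had a log2FC of −0.040 (standard error 0.052, adjusted p = 0.841), a sign opposite to that of *BAD* alone.

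**Figure D3:**
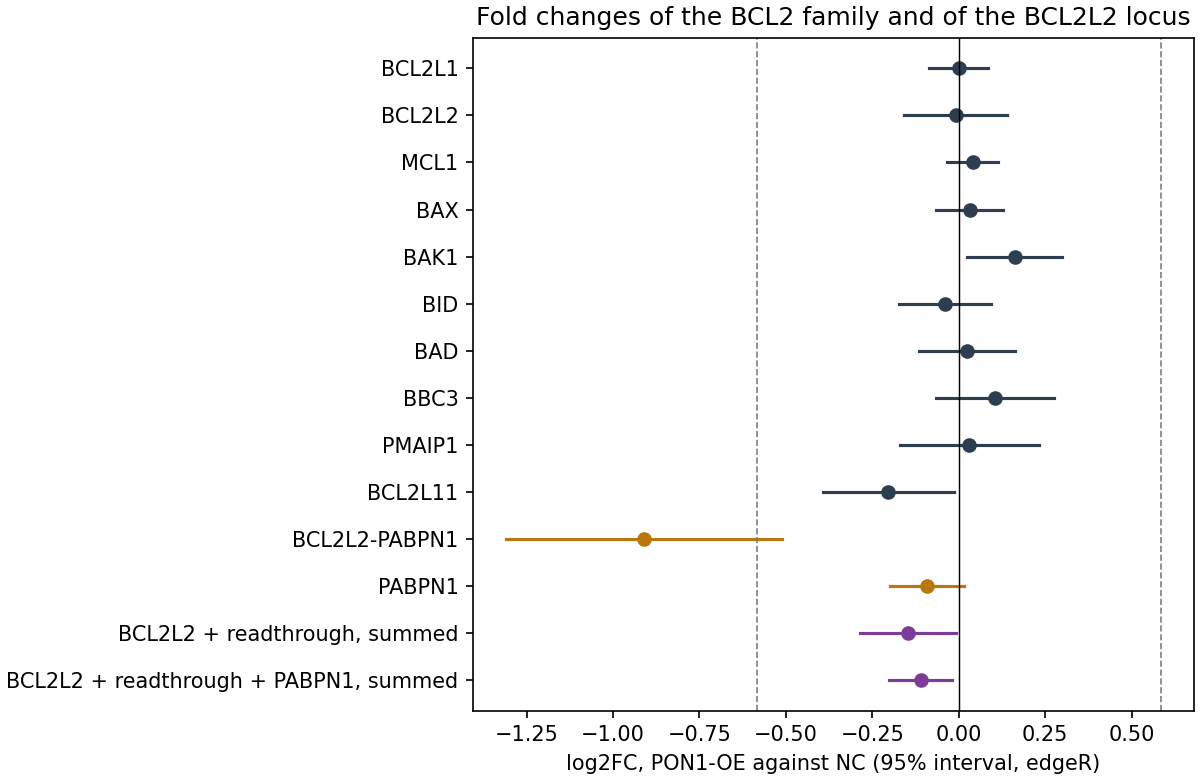
log2FC of PON1-OE against NC with 95% intervals from edgeR for the 10 BCL2 family members, for BCL2L2-PABPN1 and PABPN1, and for the summed counts of the locus; dashed lines mark the fold threshold of 0.585. The intervals of the members lie between −0.39 and 0.30, and BCL2L2-PABPN1 has the lowest value, −0.91.

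Levels of different genes were compared as CPM per kilobase of exon, using the union of a gene's exons in GENCODE v29. On this scale the order among the members was *MCL1*, *BCL2L1*, *BAX*, *BAD*, *BID*, *BAK1*, *PMAIP1*, *BBC3*, *BCL2L2* and *BCL2L11*. *MCL1* had 203 ± 4.14 in NC and 208 ± 9.55 in PON1-OE, *BCL2L1* 100.01 ± 2.36 and 100.04 ± 5.59, and *BAX* 53.5 ± 1.91 and 54.6 ± 3.06 CPM per kilobase (SD, n = 3 each). Between these 3 genes no library of a lower gene reached any library of a higher gene. *BID* and *BAK1* overlapped, with means of 19.4 ± 2.06 and 17.5 ± 0.804 for NC, against 18.9 ± 0.877 and 19.6 ± 0.808 for PON1-OE, and their order in the group means differed between NC and PON1-OE. *PMAIP1* overlapped with *BBC3*, and *BBC3* with *BCL2L2*. At the low end *BCL2L11* had 3.77 ± 0.378 in NC and 3.27 ± 0.310 CPM per kilobase in PON1-OE, with every library below every library of *BCL2L2*. With the longest transcript as the length, *BBC3* and *PMAIP1* changed places and the other 8 members kept theirs. The level of *BCL2L2* here leaves out the counts given to its readthrough gene. With them its mean was 44.4 against 35.8 CPM in NC, and 40.2 against 35.6 CPM in PON1-OE. Its place in the order with those counts was not tested. Reads from opposite-strand genes may add to the levels of *BAD* and *BCL2L1*.

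Of the 13 further genes of the family, 9 were tested and 0 of these had an unadjusted p under 0.05 in edgeR. *BCL2* itself, the founding anti-apoptotic gene, was scarce in these cells, with 27, 41 and 24 counts for NC and 28, 37 and 44 for PON1-OE. Per length this was 0.150 ± 0.0378 and 0.193 ± 0.0470 CPM per kilobase (SD, n = 3 each), the lowest level of the 19 family genes tested. Its log2FC of 0.35 had a wide error (standard error 0.28, 95% interval −0.22 to 0.93, adjusted p = 0.699 in edgeR). *BCL2A1* had no count in any library, which at a floor of 3 counts allows up to 0.166 to 0.192 CPM, and *BCL2L10*, *BCL2L14* and *HRK* had at most 7 counts in a library. The log2FC of the other tested genes lay between −0.13 for *BMF*, a BH3-only gene, and 0.092 for *BIK*, another BH3-only gene. Without single libraries *BMF* ranged from −0.24 (without NC replicate 2, unadjusted p = 0.00600 in edgeR, adjusted p = 0.210) to −0.054 (without NC replicate 3), and *BIK* from 0.012 to 0.17. *BNIP3* and *BNIP3L*, which act in the removal of mitochondria, had a log2FC of −0.028 and 0.019. *BOK*, *BCL2L12*, *BCL2L13* and *BCL2L15* had 0.083, −0.0068, 0.016 and 0.0095.

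**Figure D4:**
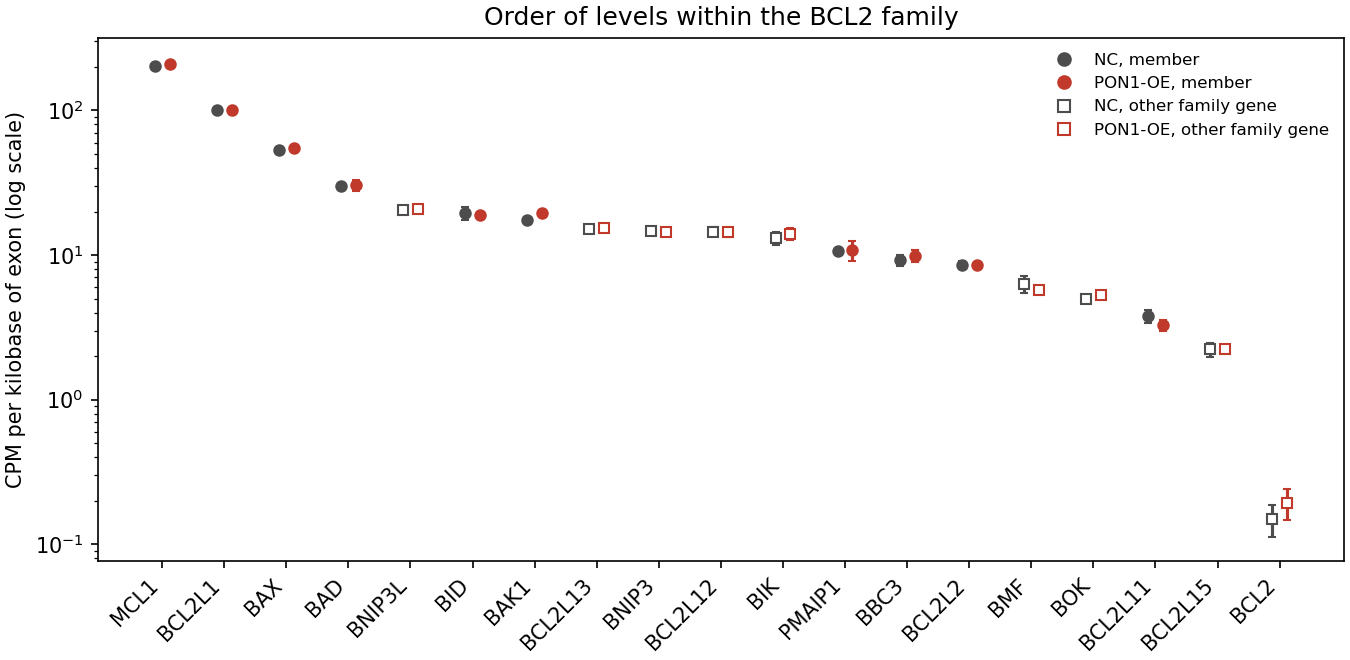
CPM per kilobase of exon, on a log scale, of the 10 members (filled circles) and the 9 other tested genes of the family (open squares), as mean ± SD of 3 libraries per group. Levels range from 203 for MCL1 to 0.150 for BCL2 in NC, and the 2 groups lie close together for each gene.

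The wider pathway was described with 7 hand-written lists, the further family genes included, that together held 79 genes, of which 68 were tested. Of these, 1 rose at an adjusted p under 0.05 and 0 fell (edgeR, 0.502% and 0.176% of all genes tested), and at an unadjusted p under 0.05 there were 7, of which 3 were higher and 4 lower, where 11.1% of all genes tested passed. Their median log2FC was 0.0054, with 35 higher and 33 lower.

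The gene that rose was *CDKN1A*, the p53 target that encodes the cell cycle inhibitor p21. It measured 183, 190 and 177 CPM in the NC libraries and 207, 208 and 204 CPM in the PON1-OE libraries. The groups did not overlap, as in 8.32% of all genes tested in this direction. The difference was 1.13-fold (log2FC 0.17, standard error 0.040, adjusted p = 0.0484 in edgeR). The adjusted p reached 0.347 without NC replicate 3 and was above 0.05 without each of 4 other libraries, with the replicate number as a block (0.0940) and in limma-voom (0.0540), over a range of 0.00844 to 0.347. In the list of p53 and its targets, 16 of 17 genes were tested, 9 were higher and 7 lower, and *SESN2* had a log2FC of 0.25 (standard error 0.070, adjusted p = 0.140) with overlapping groups. With all genes that had a count tested, its adjusted p was 0.00596, and without PON1-OE replicate 2 it was 0.00492, where the log2FC was 0.35. Under every other alternative the adjusted p of *SESN2* was above 0.05, up to 0.489 without PON1-OE replicate 3 in edgeR. The p53 targets within the family, *BBC3*, *PMAIP1* and *BAX*, had log2FC values of 0.11, 0.031 and 0.031.

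In the death receptor list 9 of 14 genes were tested, and *TNFRSF10D*, which encodes a decoy receptor for TRAIL, had the lowest value. It measured 16.8, 14.3 and 15.3 CPM in the NC libraries and 10.9, 11.9 and 12.4 CPM in the PON1-OE libraries. The groups did not overlap, as in 7.74% of all genes tested in this direction (log2FC −0.40, standard error 0.10, unadjusted p = 0.000910 in edgeR). The adjusted p was 0.0903, or 0.0367 without the filter on low counts. It lay between 0.0701 (without NC replicate 2) and 0.387 (without NC replicate 1) under the other alternatives that gave one. In DESeq2 the gene had none. *FASLG* had no count in any library and *FAS* had at most 5.

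Among the apoptosome and mitochondrial factors, 10 of 10 tested, *VDAC1*, a channel of the outer mitochondrial membrane, had a log2FC of −0.12 (standard error 0.041, unadjusted p = 0.00731, adjusted p = 0.229). Its PON1-OE values were wholly below those of NC, as were those of 7.74% of all genes tested. *CYCS*, which encodes cytochrome c, had a log2FC of −0.022. Of the 6 caspases tested, 0 had an unadjusted p under 0.05, with log2FC values from −0.032 to 0.10. Among the 7 inhibitor of apoptosis genes tested, *BIRC3* had a log2FC of −0.23 (standard error 0.10, unadjusted p = 0.0368, adjusted p = 0.409). Of the 11 tested regulators of the family, *E2F1* had −0.21 (unadjusted p = 0.0325, adjusted p = 0.397 in edgeR) and *FOXO3*, a transcription factor that can induce *BCL2L11*, had 0.10 (unadjusted p = 0.0400, adjusted p = 0.425), where *BCL2L11* had −0.20. The relation of *FOXO3* to *BCL2L11* was not tested. The value of *E2F1* rested on single libraries, at −0.33 without NC replicate 2 (adjusted p = 0.0339) and −0.13 without NC replicate 1 (unadjusted p = 0.195). The unadjusted p of *VDAC1*, *BIRC3* and *FOXO3* also rose above 0.05 without at least 1 of the libraries.

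**Figure D5:**
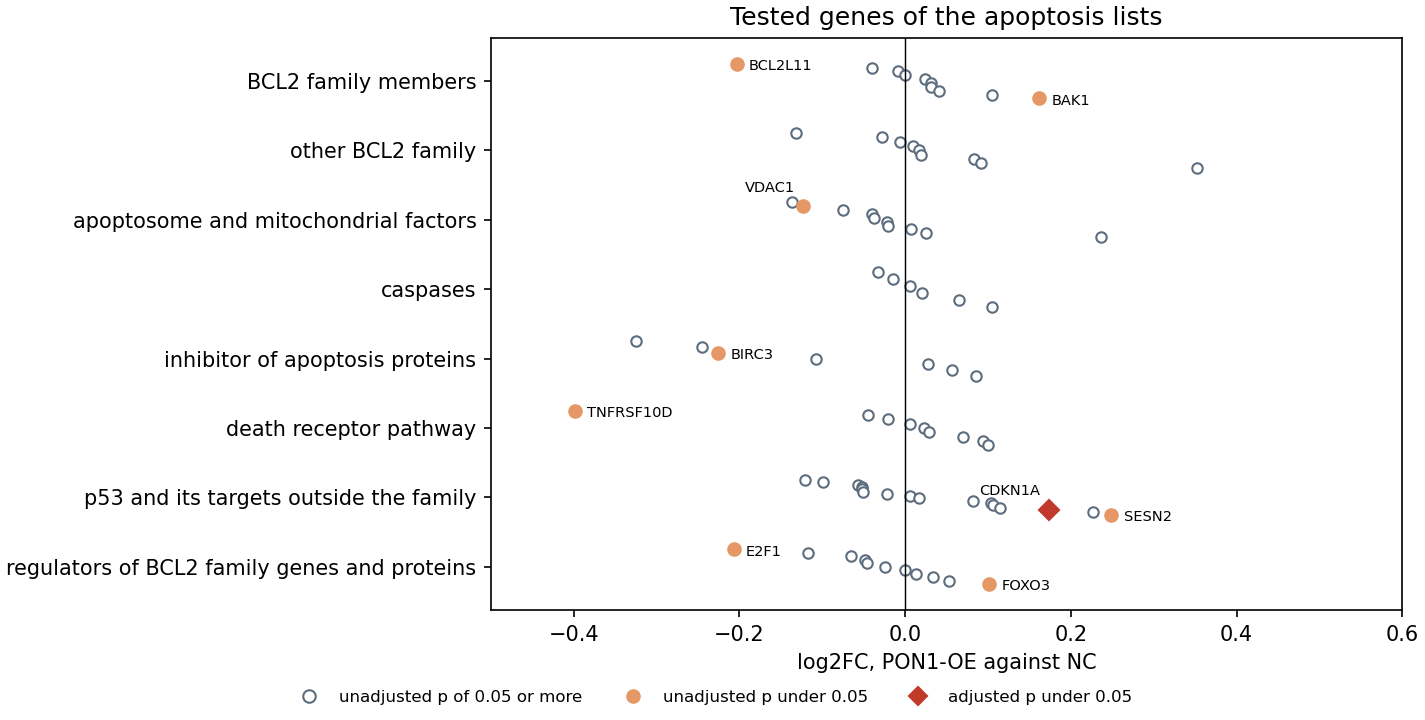
log2FC of PON1-OE against NC for each tested gene of the BCL2 family members and of the 7 other apoptosis lists; open circles, filled circles and diamonds mark an unadjusted p of 0.05 or more, an unadjusted p under 0.05 and an adjusted p under 0.05. CDKN1A is the single diamond, and BAK1 and BCL2L11 are the filled circles among the members.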

How the data were processed

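RNA-seq libraries of HCCLM3 cells, 3 PON1-OE and 3 NC, were analyzed. In the table that the authors deposited, each gene has an estimated count in each library. No scaling had been applied, and 10.5% of the values were not whole. The submitters' processing notes name Bowtie2 2.2.8, HISAT2, StringTie 1.3.1 and DESeq2 without roles, and the genome build is not given in the sources used here. Coordinates, exons and junction sequences were taken from GENCODE v29, which holds 20126 of the 20381 identifiers.

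Rounded counts were tested with edgeR 4.0.16 under R 4.3.3 (filterByExpr, TMM, glmQLFit and glmQLFTest without covariates, Benjamini-Hochberg adjustment over the 11958 genes kept). limma 3.58.1 (voom) and DESeq2 1.42.0 were alternatives, with RLE size factors, other filters, a replicate block, each library left out and summed loci. The fit was tested on simulated counts. At an adjusted p under 0.05 it recovered 22.4% of changes with |log2FC| 0.2, 70.1% of those with 0.4 and 98.5% of those with 0.8. In those counts most changes of 0.2 were therefore missed, and 12 of all 139 calls were false. Recovery in the measured libraries was not tested. Exact permutation tests were two-sided. Libraries of a group differed by more than sampling noise (chi-square per degree of freedom 2.11 to 4.11).

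The members and lists were chosen with earlier results of these data known. The genes named are the members, the *BCL2L2* locus, *PON1*, the cell type markers, tested family genes, and in each list genes with an adjusted p under 0.05 and up to 2 with the lowest unadjusted p, if under 0.05. *CYCS*, *FAS*, *FASLG*, the untested family genes and the overlapping genes were named after their values were seen.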

Additional observations from a re-analysis of the deposited data

How the results depend on the processing

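The count of members at an adjusted p under 0.05 was 0 in all 14 alternatives, where the lowest adjusted p of a member was 0.300, and 4 of the 10 members kept their sign in every alternative (*MCL1*, *BAK1*, *BBC3* and *BCL2L11*). The count of members at an unadjusted p under 0.05, 2, became 1 with the replicate block, 1 in DESeq2, 3 with *BCL2L2* summed with its readthrough gene and 0 to 3 without single libraries (3 without NC replicate 2, 0 without NC replicate 3, 1 without PON1-OE replicate 1 or 3, and without PON1-OE replicate 2 again 2, which were *MCL1* and *BCL2L11*). Over the other lists, the count at an adjusted p under 0.05, 1, became 3 without the filter on low counts, 0 with the replicate block, 0 in limma-voom and 0 to 2 without single libraries (0 without NC replicate 1 or 3 or PON1-OE replicate 1 or 3, 2 without NC replicate 2, and without PON1-OE replicate 2 again 1, *SESN2* in place of *CDKN1A*). The replicate block ended the call of *CDKN1A* at an adjusted p under 0.05 and changed that of no member, of no tested family gene and of none of *PON1*, *BCL2L2-PABPN1*, *PABPN1*, *VDAC1*, *BIRC3*, *TNFRSF10D*, *SESN2*, *E2F1* and *FOXO3*. Over all genes tested, the deviations of same-numbered libraries from their group means had correlations of −0.057 to 0.030. Whether single genes followed the replicate numbers was not tested. The sign changed for *BCL2L1* with the replicate block (log2FC −0.00061) and in limma-voom (−0.0014), and for *BAD* when summed with *GPR137*, an alternative added after the data had been seen (−0.040). Without single libraries, signs changed within the ranges −0.035 to 0.047 for *BCL2L1*, −0.054 to 0.037 for *BCL2L2*, −0.015 to 0.058 for *BAX*, −0.12 to 0.022 for *BID*, −0.015 to 0.093 for *BAD*, −0.072 to 0.15 for *PMAIP1*, −0.066 to 0.029 for *BCL2L12*, −0.079 to 0.073 for *BCL2L15*, −0.071 to 0.0018 for *BNIP3* and −0.026 to 0.060 for *BNIP3L*. The cause was not tested. The *BAX* to *BCL2L1* difference lay between −0.0092 and 0.065 on the log2 scale without single libraries, and the sum over the *BCL2L2* locus stayed between −0.13 and −0.091. The count over all genes at an adjusted p under 0.05, 81, was 40 with the replicate block, 177 without the filter, 121 in DESeq2 and 11 to 103 without single libraries.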
